A study of Homo sapiens with 2 samples.

Results

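The genes described here are those of the tumor necrosis factor (TNF) superfamily, its receptors and the adaptors that carry their signal, as measured in U87 glioblastoma cells after silencing of HOXD9. They were chosen by name, as every probe set annotated to 1 gene whose symbol begins with TNFSF, TNFRSF or TRAF and a number, or to 1 of a short list of further ligands, receptors and death-signalling genes such as TNF, FAS, CD40, FADD, CFLAR and CASP8. This gave 142 probe sets of 59 genes, among 54613 probe sets and 19775 named genes in all. RNA came from U87, an established human glioma line, transfected either with a non-silencing control siRNA or with HOXD9 siRNA-2, both at 50 nM with Lipofectamine RNAiMAX, and taken on Day 2. There was 1 Affymetrix U133 Plus 2.0 array for each condition and 1 duplex against HOXD9, so no SD, test or p-value between conditions is possible, and every ratio compares 2 arrays.

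Ligands of this superfamily are mostly trimeric membrane proteins, and they signal by clustering their receptors. Receptors with a cytoplasmic death domain can assemble FADD and caspase-8 into a complex that starts apoptosis, whereas the others recruit TRAF proteins and turn on NF-κB and stress kinases. Decoy receptors bind the same ligands without passing on a death signal. In glioma these genes are studied chiefly because TRAIL and FAS ligand can kill tumor cells, and the study drew TRAIL (TNFSF10), TNFRSF18, TNFRSF10D, TNFRSF11B and TRAF4 among the genes it selected from these same arrays, so that their directions are not independent evidence.

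The values are deposited linear signal intensities, in arbitrary units, 1 per probe set and array. A probe set is called above background when its signal exceeded 18.4, the highest reading among 27 Bacillus subtilis control probe sets. Their highest signal was 11.4 after control siRNA and 18.4 after HOXD9 siRNA, and their medians were 3.90 and 2.52. All probe sets together had median signals of 22.5 (control siRNA) and 18.3 (HOXD9 siRNA). Dividing each array by its median, here called centering, therefore adds 0.30 to every log2 ratio, and the sign of a small ratio is not secured. HOXD9 itself read 19.7 and 5.58 on 1 probe set and 9.33 and 11.4 on the other, in control siRNA- and HOXD9 siRNA-transfected cells respectively, so that it was at least 1.07-fold lower on the first. After centering, the background is 22.6 and no HOXD9 signal exceeds it. Of the glioma and mesenchymal markers, VIM, NES, CD44, TNC and SPARC were above background on both arrays, and GFAP, SOX2 and S100B were not. None of 7 leukocyte markers was above background on both arrays, with PTPRC at or below 11.7, although CD3E (23.3) and CD3D (18.9) exceeded it on the HOXD9 siRNA array.

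Most of the network's receptors and intracellular adaptors were read in U87 cells, and most of its ligands were not. A probe set above background on both arrays was found for 34 of the 59 genes, on 1 array only for 11, and on neither for 14. By probe sets the counts were 68 on both arrays, 18 on 1 array and 56 on neither. Over the whole array 47.2% of probe sets were above background on both arrays, close to the 47.9% of the members, and by genes the share was 56.6% of all 19775. The share differed by role, with 6 of 25 ligand probe sets above background on both arrays, 14 of 22 for receptors with a death domain, 4 of 8 for decoy receptors, 12 of 28 for the other receptors, 10 of 15 for TRAF adaptors and 16 of 25 for the death-signalling complex.

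**Figure D1:**
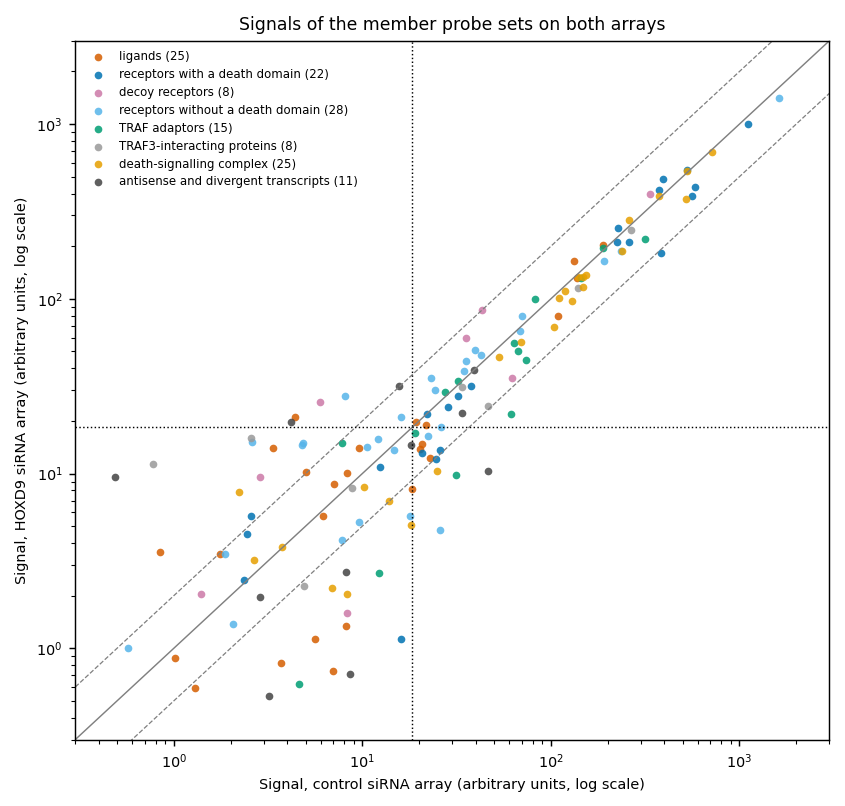
Signal of each of the 142 member probe sets on the control siRNA array (x axis) and the HOXD9 siRNA array (y axis), both in arbitrary units on log scales and colored by role. Dotted lines mark the background of 18.4, the solid diagonal equal signals and the dashed diagonals 2-fold. Above background on both arrays the points keep near the diagonal, and the wide scatter lies below 18.4.

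Few of these genes differed by more than 2-fold, the threshold used in the study, between the arrays. When the brightest probe set stood for each gene and signals under 18.4 were taken at 18.4, 2 of 45 genes were lower by more than 2-fold, namely TRAF4 and the antisense transcript TNFRSF14-AS1, and none was higher. Over all genes treated the same way, 3.73% of 12906 were lower and 0.225% were higher, so the members' counts lie near that background. By probe sets, 3 were lower (1 each of TRAF4, TNFRSF21 and TNFRSF14-AS1) and 1 of TNFRSF10D was higher, against 4.62% and 0.267% of all 31046 probe sets above background on at least 1 array. After centering, 2 genes were lower and 1, TNFRSF11B, was higher (1.30% and 0.615% of all genes). The probe sets past 2-fold were then those of TRAF4 and TNFRSF14-AS1 below and those of TNFRSF10D and TNFRSF11B above (1.54% and 0.694% of all). The median log2 ratio of the 45 genes was -0.13, beside -0.24 over all genes. After centering, 42 genes passed the background, with a median of 0.19 beside 0.05 over all genes. In RNA from whole cultures, a change in the number of cells that express a gene and a change in RNA per cell cannot be told apart.

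As no replicate error exists, the only internal measure of scatter is how far probe sets of the same gene differ in log2 ratio. Over 5786 genes with 2 or more probe sets above background on both arrays, these ratios had a pooled SD of 0.32, which was 0.42 among dim probe sets (mean signals of 18.8 to 82.2), 0.30 among those of 82.2 to 258 and 0.22 among brighter ones. Among the members the pooled SD was 0.38 over 19 genes. Most of the ratios given below are smaller than or close to these spreads.

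**Figure D2:**
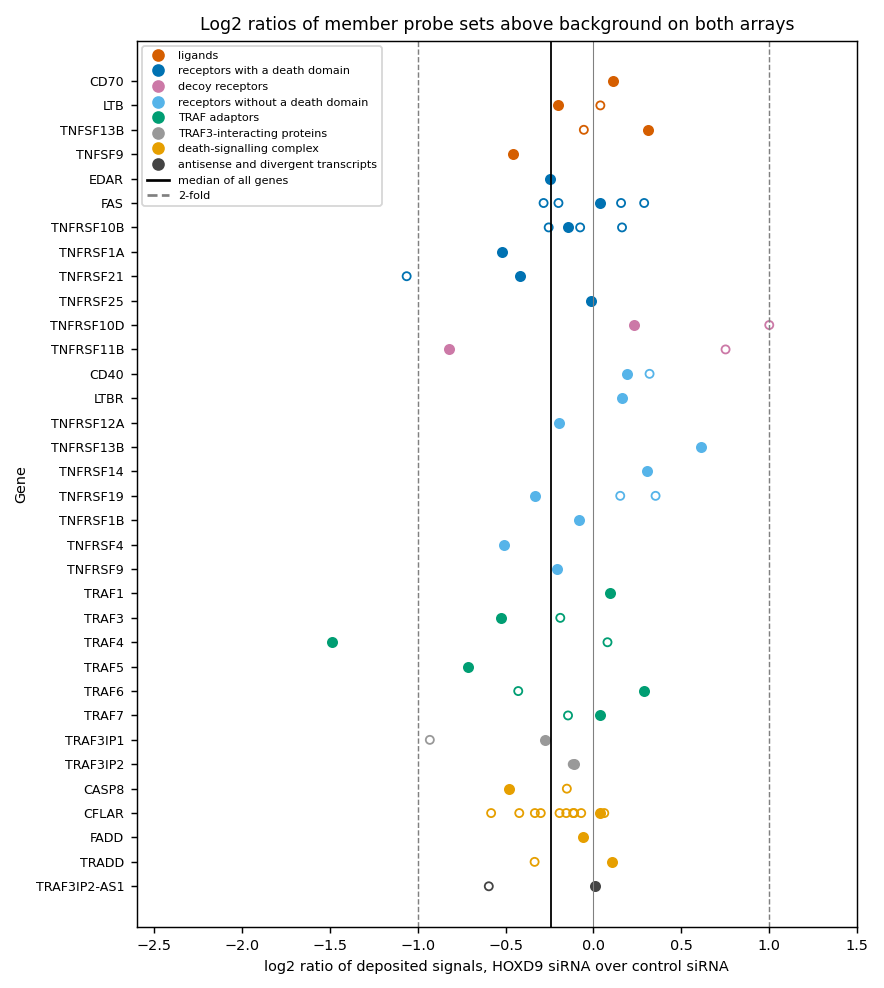
Log2 ratio of deposited signals, HOXD9 siRNA over control siRNA (x axis), for each of the 68 member probe sets above background on both arrays, by gene (y axis) and colored by role. Filled points are the brightest probe set of a gene and open points its others, the dashed lines mark 2-fold, the gray line 0 and the black line the median of all genes, -0.24. TRAF4 at -1.49 is the only filled point past 2-fold, and its open point lies at 0.08.

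Of 15 ligand genes, 4 had a probe set above background on both arrays, beside 56.6% of all genes. CD70, the ligand of the TNF receptor family member CD27, gave a signal of 189 after control siRNA and 204 after HOXD9 siRNA (log2 ratio 0.11). CD27 itself, which the naming rule does not take in, read 17.3 and 7.93, within background. TNFSF13B, which encodes the B-cell survival factor BAFF, gave 133 and 165 on 1 probe set and 137 and 132 on the other (log2 ratios 0.31 and -0.05), so its 2 probe sets differed in sign. TNFSF9, the ligand of 4-1BB, read 109 and 79.5 (log2 ratio -0.46, or -0.16 after centering). LTB, the membrane anchor of lymphotoxin, was only just above background, at 21.7 and 18.9 and at 19.2 and 19.7, and after centering its control siRNA signals lay within background.

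The best known death ligands were among those not detected. Both probe sets of FASLG, all 3 of TNFSF10, which encodes TRAIL, and the single ones of TNF (8.27 and 10.0) and LTA (1.75 and 3.47) stayed under 18.4 on both arrays. The TRAIL probe sets read 1.01 and 0.878, 3.34 and 14.02, and 6.17 and 5.69. TNFSF11 (RANKL), TNFSF14 (LIGHT) and TNFSF8 (CD30 ligand) were likewise within background on every probe set, the highest signal being the 18.38 of TNFSF8 with control siRNA, just inside the limit of 18.39. These signals give no fold difference, and a low transcript level is not detectable on these arrays. For TRAIL the study also used qRT-PCR, at a later day than these arrays. It reported more TRAIL mRNA after HOXD9 siRNA than after control siRNA. A further 4 ligands passed the background on 1 array. TNFSF13 (APRIL) read 22.8 and 12.2, at least 1.24-fold lower with HOXD9 siRNA. TNFSF15 (TL1A) read 20.7 and 14.8 on its brighter probe set and TNFSF4 (OX40 ligand) 20.2 and 13.8, at least 1.13-fold and 1.10-fold lower. TNFSF18, the ligand of GITR, read 4.38 and 21.2, at least 1.15-fold higher. The spread between probe sets was measured only where both signals were above background, so it does not cover these 4 bounds. After centering, TNFSF15 and TNFSF4 were within background on both arrays and the bound of TNFSF13 was 1.01-fold.

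Of 8 receptor genes with a death domain, 6 were above background on both arrays, beside 56.6% of all genes. None was past 2-fold on its brightest probe set. FAS was read by 5 probe sets, all above background on both arrays. On the brightest its signals were 530 with control siRNA and 544 with HOXD9 siRNA, and the log2 ratios of the 5 ran from -0.28 to 0.29. TNFRSF10B, the TRAIL receptor DR5, read 1108 and 1002 on its brightest probe set, and its 4 log2 ratios ran from -0.25 to 0.16. Both genes thus had ratios of either sign as deposited, whereas after centering all were above 0, from 0.02 to 0.59 for FAS and from 0.05 to 0.46 for TNFRSF10B. TNFRSF10A, the other TRAIL receptor with a full death domain (DR4), was within background on its 3 probe sets, with a highest signal of 16.1 (control siRNA) against 1.12 on the other array, and no fold is given.

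TNFRSF1A, the main receptor of TNF, read 558 with control siRNA and 389 with HOXD9 siRNA on its single probe set, a log2 ratio of -0.52 that became -0.22 after centering. TNFRSF21, the death receptor DR6, read 583 and 437 on its brighter probe set (log2 ratio -0.42) and 382 and 183 on the other (-1.06). The second is of the x_at type, in which probes can match transcripts of other genes, and after centering it stood at -0.76, short of 2-fold. Both TNFRSF21 probe sets were lower on the HOXD9 siRNA array under either scaling. EDAR, the ectodysplasin receptor of skin appendages, read 28.5 and 24.0. TNFRSF25 (DR3, the receptor of TL1A) had 1 of 5 probe sets above background on both arrays, at 22.1 and 21.9. A further 3 of them passed it with control siRNA alone, with signals of 20.8 to 25.8 there and 12.1 to 13.6 with HOXD9 siRNA, at least 1.13-fold to 1.40-fold lower. After centering the lowest of these 3 was within background and the other bounds were 1.09-fold and 1.14-fold. The TNFRSF25 probe set at 22.1 and 21.9 then passed background with HOXD9 siRNA alone, at least 1.19-fold higher. NGFR, the p75 neurotrophin receptor, was at 2.37 and 2.47.

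Among probe sets above background on both arrays, the 2 with the highest log2 ratios belonged to decoy receptors, but other probe sets of the same genes read differently. TNFRSF10D (DcR2), whose truncated death domain cannot start apoptosis, read 42.9 and 85.9 on the dimmer probe set, just past 2-fold, and 337 and 396 on the brighter one, a log2 ratio of 0.23. Both TNFRSF10D probe sets read higher with HOXD9 siRNA, and after centering their log2 ratios were 1.30 and 0.53. TNFRSF11B, which encodes osteoprotegerin, a secreted decoy for RANKL that also binds TRAIL, read 62.0 and 35.0 on 1 probe set and 35.4 and 59.6 on the other. The log2 ratios were -0.82 and 0.75, opposite in sign, and no direction can be given for TNFRSF11B as a gene. The call after centering arose because centering made the second probe set the brighter of the pair, at 1.05. TNFRSF10C (DcR1), a decoy without a cytoplasmic domain, passed background on 1 of 4 probe sets and on the HOXD9 siRNA array alone, with 5.95 and 25.6, at least 1.39-fold higher. Its other 3 probe sets lay at or below 9.52.

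**Figure D3:**
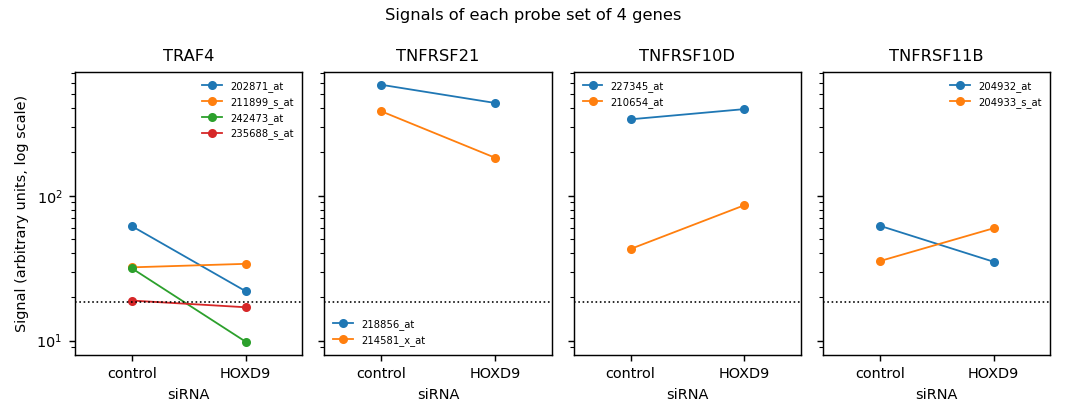
Signals (y axis, arbitrary units, log scale) of each probe set of TRAF4, TNFRSF21, TNFRSF10D and TNFRSF11B with control siRNA and with HOXD9 siRNA (x axis); each line is 1 probe set and the dotted line is the background of 18.4. The lines of TRAF4 and TNFRSF11B diverge or cross, whereas both TNFRSF21 probe sets read lower and both TNFRSF10D probe sets higher with HOXD9 siRNA.

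Of 15 receptor genes without a death domain, 9 were above background on both arrays, beside 56.6% of all genes, and none was past 2-fold. TNFRSF12A, which encodes Fn14, the receptor of TWEAK, read 1617 with control siRNA and 1414 with HOXD9 siRNA, a log2 ratio of -0.19. TNFRSF19 (TROY) read 236 and 187 on its brightest probe set and had log2 ratios of 0.15 and 0.35 on its other 2, against -0.34 on the brightest. TNFRSF9 (4-1BB), the receptor of TNFSF9, read 190 and 164 (log2 ratio -0.21), while a dimmer probe set read 8.10 and 27.8, at least 1.51-fold higher, and the last was within background. With TNFSF9 above background as well, 4-1BB and its ligand were both detected in these cells.

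CD40 gave log2 ratios of 0.19 and 0.32 on 2 of its 4 probe sets, with signals of 69.9 and 79.7 on the brighter. TNFRSF1B, the second TNF receptor, read 68.8 and 65.1, and LTBR, the receptor of lymphotoxin, 42.6 and 47.7. TNFRSF14, the receptor of LIGHT, read 35.5 and 43.9 (log2 ratio 0.31). TNFRSF13B (TACI), a receptor of BAFF and APRIL, read 23.1 and 35.4. Its log2 ratio of 0.61 was the highest among the members' brightest probe sets above background on both arrays. TNFRSF4 (OX40) read 26.2 and 18.40, the latter barely above the limit of 18.39 (log2 ratio -0.51). TNFRSF8 (CD30) read 25.7 and 4.76 and was at least 1.40-fold lower, or 1.14-fold after centering. EDA2R, at 22.3 and 16.3, was at least 1.21-fold lower, but after centering it was within background on both arrays. TNFRSF18 (GITR) read 15.9 and 21.1 on 1 probe set, a bound of at least 1.15-fold higher, and 2.59 and 15.2, within background, on the other. Its 15.9 lay above the highest control transcript of its own array, 11.4, and against that level TNFRSF18 was above background on both arrays. TNFRSF11A (RANK), TNFRSF13C (BAFF receptor) and TNFRSF17 (BCMA) were within the background of 18.4 on every probe set, with highest signals of 15.7, 3.44 and 9.56. Against each array's own highest control transcript, 1 probe set each of TNFRSF11A, TNFRSF10A and TNFSF8 also passed, with 12.05, 16.1 and 18.38, on the control siRNA array alone.

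TRAF4, a member of the family that is also found at cell junctions, was the one adaptor past 2-fold. On its brightest probe set it read 61.6 with control siRNA and 21.9 with HOXD9 siRNA, 2.81-fold lower (log2 ratio -1.49), and 2.28-fold lower after centering. On another it read 31.5 and 9.84, at least 1.71-fold lower (1.39-fold after centering). The remaining pair gave 32.1 and 33.9 (log2 ratio 0.08), and 18.9 and 17.0, at least 1.03-fold lower, a bound that centering removed, so that 2 of its 4 probe sets read clearly lower and the others did not. When the probe sets of TRAF4 were averaged, the log2 ratio was -0.56. The study selected TRAF4 on these arrays.

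None of the other TRAF genes passed 2-fold. TRAF3, which restrains the alternative NF-κB pathway, read 316 and 219 on its brighter probe set (log2 ratio -0.53) and 63.5 and 55.7 on the other (-0.19). TRAF5 read 73.4 and 44.8 (log2 ratio -0.71, or -0.41 after centering), with its other probe set within background. TRAF6, the adaptor shared with the interleukin-1 and Toll-like receptors, read 81.9 and 99.98 on 1 probe set and 67.2 and 50.0 on the other, with log2 ratios of 0.29 and -0.43 that differ in sign. TRAF7 read 189 and 194 on its brightest probe set and TRAF1 27.4 and 29.3. Over the 6 TRAF genes the median log2 ratio was -0.24, equal to that of all genes at this rounding. Of genes named for binding TRAF3, TRAF3IP1, a protein of cilia, had log2 ratios of -0.27 and -0.93, TRAF3IP2, the adaptor of the interleukin-17 receptor, -0.11 and -0.12, and TRAF3IP3 was within background.

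Of the 5 genes analysed of the complex that links death receptors to caspases, 4 were above background on both arrays. Over all genes the share was 56.6%, and none of the 5 was past 2-fold. FADD, the adaptor of FAS and the TRAIL receptors, read 717 and 689 (log2 ratio -0.06). TRADD, the adaptor of TNFRSF1A, gave log2 ratios of 0.11 and -0.33, from 261 and 281 and from 238 and 189. CASP8, the initiator caspase, read 518 and 371 on its brighter probe set (log2 ratio -0.48, or -0.18 after centering) and 148 and 133 on the other. CFLAR, which encodes c-FLIP, the inhibitor of caspase-8 activation, was read by 14 probe sets, 9 of them of the x_at type. On the brightest its signals were 528 and 541, and the 11 above background on both arrays had log2 ratios from -0.58 to 0.06. CASP10, the relative of CASP8, passed background with control siRNA alone, at 24.8 against 10.3, at least 1.35-fold lower (1.09-fold after centering), and its other 3 probe sets were within background.

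Noncoding transcripts whose symbols carry a family name met the naming rule too. TNFRSF14-AS1, antisense to the LIGHT receptor gene, read 46.2 and 10.3 on 1 probe set, at least 2.51-fold lower with HOXD9 siRNA, but 15.5 and 31.6 on another, at least 1.72-fold higher, and was within background on the third. Its probe sets thus point in opposite directions. TRAF3IP2-AS1 had log2 ratios of 0.01 and -0.60 on the 2 of 5 probe sets above background on both arrays. TNFRSF10B-AS1 passed it on 1 of 2 probe sets, at 19.8 with HOXD9 siRNA, and TNFRSF10A-DT was within background. Without these 4 genes, 33 of 55 genes were above background on both arrays and 1 was past 2-fold.

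Genes of the superfamily often lie next to one another, and neighbors could differ in whether they were read. In the RefSeq order of protein-coding genes (GRCh38.p14), TNFSF9, CD70 and TNFSF14 are direct neighbors on chromosome 19, and the first 2 were above background on both arrays while TNFSF14 was at or below 5.62. FASLG, TNFSF18 and TNFSF4 adjoin on chromosome 1, with only TNFSF18 and TNFSF4 passing the limit on 1 array each. CFLAR, CASP10 and CASP8 adjoin on chromosome 2, and CASP10 is the dim one. TNFRSF10B, TNFRSF10C, TNFRSF10D and TNFRSF10A form an unbroken run of 4, in which TNFRSF10B and TNFRSF10D were read clearly and the pair TNFRSF10C and TNFRSF10A was not.

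NF-κB is the best known transcriptional output of these receptors and also acts on several of the family's own genes, so the core of its binding motif was sought in their promoters. Windows of 300 bases, 250 before and 50 after the start, were on hand from RefSeq (GRCh38.p14) for 40 of the 59 genes. The letters GGANTTTCC, on either strand, were present in windows of 3 of these genes, LTB, TNFRSF9 and TRAF5, beside 549 of 27305 genes over the whole table (2.01%). The motif was chosen with the signals known, and a match describes letters and not a bound site. The 150 bases before the start of these genes and of TRAF4, the adaptor with the largest difference, are shown 5′ to 3′ on the gene's strand, with the motif in capitals. They lie at chr6:31582425-31582574 (minus strand) for LTB, chr1:7940840-7940989 (minus) for TNFRSF9, chr1:211326485-211326634 (plus) for TRAF5 and chr17:28743861-28744010 (plus) for TRAF4.
LTB: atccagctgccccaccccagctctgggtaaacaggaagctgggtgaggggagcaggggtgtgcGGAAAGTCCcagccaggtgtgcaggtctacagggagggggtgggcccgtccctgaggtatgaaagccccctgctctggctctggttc
TNFRSF9: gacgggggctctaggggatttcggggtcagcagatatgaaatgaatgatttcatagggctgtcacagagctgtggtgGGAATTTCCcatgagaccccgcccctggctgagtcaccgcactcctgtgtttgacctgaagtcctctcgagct
TRAF5: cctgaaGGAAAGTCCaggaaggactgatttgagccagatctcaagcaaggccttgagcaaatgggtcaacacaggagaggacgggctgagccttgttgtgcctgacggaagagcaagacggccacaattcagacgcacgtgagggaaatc
TRAF4: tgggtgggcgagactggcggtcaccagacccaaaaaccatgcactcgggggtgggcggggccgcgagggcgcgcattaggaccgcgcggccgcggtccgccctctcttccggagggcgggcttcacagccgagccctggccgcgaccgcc

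In the printed window of LTB, 1 of 2 for that gene, the motif lies 87 to 79 bases before the start, on the strand opposite to the gene. In that of TNFRSF9 it lies 73 to 65 bases before the start on the gene's own strand. In that of TRAF5, 1 of 3 windows, it lies 144 to 136 bases before the start, again on the opposite strand. The 3 genes had different readings, with LTB near background, TNFRSF9 at a log2 ratio of -0.21 and TRAF5 at -0.71 on their brightest probe sets. The window of TRAF4 holds no match.

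Downstream of the receptors, a list of genes of the ubiquitin and kinase machinery was examined, with deubiquitinases and adaptors included. Of 17 such genes with a named probe set, 16 were above background on both arrays, beside 56.6% of all named genes, and their median log2 ratio was -0.39, or -0.09 after centering, beside -0.24 and 0.06 over all genes. TAB2, which couples the kinase TAK1 to ubiquitin chains, read 599 and 294 (log2 ratio -1.03, or -0.73 after centering) and was the one gene of this list past 2-fold, where 3.73% of all genes were lower. TAB1 had -0.86 and SHARPIN, a subunit of the linear ubiquitin ligase, -0.69.

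All 8 genes of NF-κB subunits and inhibitors were above background on both arrays, again beside 56.6% of all genes. Their median was -0.21, or 0.09 after centering, beside -0.24 and 0.06 over all genes. None was past 2-fold on the brightest probe set. RELB had a log2 ratio of -0.73, REL -0.36 and NFKB2 -0.33, or -0.43, -0.06 and -0.03 after centering. NFKB2 differed in sign on a dimmer probe set, at 26.8 and 33.9 (log2 ratio 0.34). A dimmer probe set of REL read 87.0 and 37.0 (log2 ratio -1.23, or -0.93 after centering), and a dimmer one of NFKBIB, with 37.5 and 13.5, passed background with control siRNA alone (log2 ratio against the background -1.03, or -0.73 after centering). Among 6 cell death executors the median was -0.10, or 0.20 after centering. RIPK3 was at 0.39 from signals of 18.6 and 24.4, MLKL at -0.35 and CASP6 at -0.26.

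Of 10 genes commonly induced by TNF, 9 were above background on both arrays, beside 56.6% of all genes. Their median log2 ratio was -0.25, or 0.05 after centering, beside -0.24 and 0.06 over all genes. TNFAIP6, a hyaluronan-binding secreted protein, read 103 and 42.0 on its brighter probe set, a log2 ratio of -1.29 (-0.99 after centering), and was the one gene past 2-fold, beside 3.73% of all genes. Its other probe set had a log2 ratio of -0.77. CXCL8 had -0.66, ICAM1 -0.59 on its brightest probe set, and IL6 0.09. The other probe sets of ICAM1 differed from one another, with a log2 ratio of -1.29 on 1 and signals of 16.8 and 36.8, above background with HOXD9 siRNA alone, on the last. RELT, a receptor of the family whose symbol falls outside the naming rule, read 27.9 and 37.2, and EDA, the ligand of EDAR, was within background on all 6 probe sets.

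**Figure D4:**
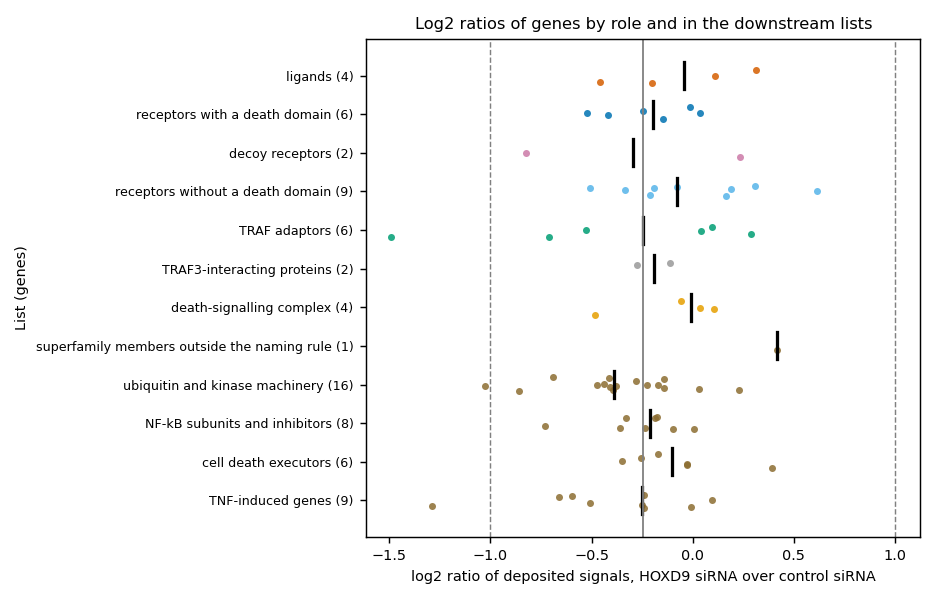
Log2 ratio of deposited signals, HOXD9 siRNA over control siRNA (x axis), of the brightest probe set of each gene above background on both arrays, by role and in the downstream lists (y axis, number of genes in parentheses). Black bars mark the median of each list, the gray line the median of all genes, -0.24, and the dashed lines 2-fold. TRAF4, TAB2 and TNFAIP6 are the points past 2-fold, and the medians of the lists with 4 or more genes lie between -0.39 and -0.01.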

How the data were processed

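U87 cells received control siRNA or HOXD9 siRNA, and 1 array of each was analysed. The deposited values are intensities on a linear scale, with 1 value for each probe set. Per the labels' processing notes they were made with GCOS, and the study's methods name GeneSpring, while no source used here states the scaling. Probe sets were named through GEO's platform annotation, updated through RefSeq. Of 54613 probe sets, 41091 had 1 gene, 1801 several and 11721 were not listed, and only those with 1 gene were used. CD40LG, TNFSF12, TNFRSF6B, TRAF2 and RIPK1 were not analysed.

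The intensities were used as deposited. Background was the highest Bacillus control signal on either array, signals under it were set to it before a ratio was taken, and a ratio past 2-fold was called. A signal above background on 1 array gives a bound ("at least"), and below it on both arrays no fold. Each gene was represented by its probe set with the highest mean signal. With 1 array per condition no test was run, and precision is limited by the number of arrays. Members, roles, downstream lists and the promoter motif were chosen with earlier results of these data known. Every member gene is named, as are the 3 genes of each downstream list farthest from 0, with further ones chosen after their values were seen.

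Alternatives were median centering, quantile normalization, loess (fraction 0.3), each array's own background, a doubled background, no x_at or s_at probe sets, and the mean of a gene's probe sets. Scripts, tested on simulated data, ran on statsmodels 0.14.6, pandas 2.3.3, numpy 2.4.6 and Python 3.11.15, with figures from matplotlib 3.10.9.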

Additional observations from a re-analysis of the deposited data

How the results depend on the processing

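With 1 array per condition, neither biological nor technical spread between arrays was measured, and signals near background limit most ligands. As deposited, 68 member probe sets were above background on both arrays, 18 on 1 array and 56 on neither. Without x_at and s_at probe sets these counts were 34, 8 and 39, and fewer probe sets were counted in all. With a doubled background of 36.8 they were 49, 8 and 85. The number of genes more than 2-fold lower was 2 of 45 as deposited and 1 of 35 (TRAF4) without x_at and s_at probe sets. It was 0 of 29 with a doubled background and 0 of 45 with the mean of a gene's probe sets. Over all genes these counts were 481 of 12906, 423 of 10197, 284 of 10488 and 346 of 12927. The number more than 2-fold higher was 0 as deposited, 1 (TNFRSF11B) with centering, 1 with quantile normalization and 1 with loess. With each array's own background it was 1 (TNFRSF10C). Over all genes the higher counts were 29 of 12906, 76 of 12359, 90 of 12361, 83 of 12320 and 158 of 14474 in these settings. The members' median log2 ratio of -0.13 became 0.19 with centering, 0.19 with quantile normalization and 0.18 with loess, and the median of all genes moved from -0.24 to 0.05, 0.03 and 0.02. Centering by itself adds 0.30 to every log2 ratio, and why the arrays differ in median signal was not tested. The members' median exceeded that of all genes by 0.08 to 0.16 in the 8 settings. TNFRSF11B, at -0.82 as deposited, was at 1.05 with centering and 1.09 with quantile normalization and loess, where its other probe set was the brighter. Of the genes past 2-fold as deposited, TRAF4 ran from -1.49 to -0.56 over the settings and TNFRSF14-AS1 from -1.33 to -0.27. Both were picked for their large ratios and every setting uses the same arrays, so their unchanged sign is not independent evidence.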

Other observations

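Probe sets annotated to several genes were left out of the values above. The probe set shared by TNFRSF6B, the soluble decoy DcR3, and RTEL1-TNFRSF6B read 45.4 with control siRNA and 33.8 with HOXD9 siRNA (log2 ratio -0.43). Of those that TNFSF13 shares with TNFSF12-TNFSF13, 1 read 34.8 and 14.5, at least 1.89-fold lower, 1 read 12.3 and 22.1, above background with HOXD9 siRNA alone, and 1 read 22.5 and 25.5 (log2 ratio 0.18). Of those that TNFRSF10C shares with LOC254896, 1 read 22.2 and 14.5, at least 1.21-fold lower, and 1 was within background.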
